A study of Bos taurus with 6 samples.

Results

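Chemokines are small secreted proteins that steer leukocytes through tissue, and their receptors are G protein-coupled receptors on the cells that respond. The chemokine genes examined here are 55 of the 34733 named genes in the expression tables. They were chosen by symbol alone, as numbered ligands and receptors of the CC, CXC, CX3C and XC classes and some of the atypical receptors, and comprise 34 ligands and 21 receptors. Cow (Bos taurus) endometrium in the luteal phase, the progesterone-dominated part of the cycle, was taken from healthy slaughterhouse uteri, stripped of its luminal epithelium and digested with collagenase to give stromal cells. Cells were stained with the DNA dye Hoechst and sorted alive, without any antibody gate in the labels. Side population (SP) cells are those that pump the dye out, as stem-like cells of many tissues do, with verapamil blocking the pump to set the gate; main population (MP) cells keep the dye. Each population has 3 libraries of mRNA, all from untreated cells. The labels do not say whether the replicates came from separate cows, so p-values here measure only the spread between these libraries, which may be technical.

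A chemokine gradient is built by the cells that secrete it, held in place by heparan sulfate on cell surfaces, and read by receptors that signal through inhibitory G proteins. Inflammatory chemokines are induced by cytokines such as tumor necrosis factor and the interferons, whereas homeostatic chemokines such as CXCL12 are made constantly by stroma. Atypical receptors bind chemokines without classical G protein signaling and remove or transport them. In the endometrium, chemokines guide the leukocytes that enter and leave over the cycle and in early pregnancy.

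Levels are given in FPKM, fragments scaled by transcript length and library size, always in the order of replicates 1, 2 and 3. The tables hold no counts, and relative depth read from the smallest values was 1, 1.60 and 1.82 in SP and 2.32, 3.18 and 1.99 in MP, so statements on genes near 0 are weaker in SP. An exact 0 can be a failed estimate and is written here as listed at 0. The labelled origin of the cells was checked on marker lists. All 12 fibroblast markers together summed to 292 to 492 FPKM in SP and to 3112 to 11387 FPKM in MP, so the SP libraries were low in the defining genes of stroma. The 14 endothelial markers summed to 1535 to 2325 FPKM in SP and to 145 to 919 FPKM in MP. Across genes, MP replicate 3 lay nearest to the SP libraries (Pearson's r 0.832 to 0.880 across genes, which are not independent replicates; 0.736 to 0.789 for MP replicate 1 and 0.747 to 0.830 for MP replicate 2). In bulk samples such as these, fewer cells of a type and less RNA per cell cannot be told apart.

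The summed transcript of the 34 ligands was higher in SP than in MP. CCL2 and CXCL3 were among the 4 most abundant of these ligands in every library. Few of the receptors examined were expressed in either population. The 34 ligands summed to 18984, 10355 and 6684 FPKM in SP and to 3122, 3404 and 5961 FPKM in MP. That was 2.18%, 1.39% and 1.03% of all FPKM in SP and 0.387%, 0.394% and 0.619% in MP. Every SP library lay above every MP library in both measures, though SP replicate 3 and MP replicate 3 were close. The sums were not tested and do not stand for the single ligands. Of the 27 ligands tested below, 13 had a positive and 14 a negative fold change of SP against MP. The 21 receptors summed to 142, 18.5 and 41.2 FPKM in SP and to 146, 34.4 and 49.2 FPKM in MP, which overlap.

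Genes at 1 FPKM or more in at least 3 of the 6 libraries were compared with limma on log2(FPKM + 1), and fold changes below are SP minus MP on that scale, with the standard error. A gene passed at an adjusted p under 0.05 (Benjamini-Hochberg over all 12127 genes tested). Of the 55 chemokine genes 29 could be tested, 27 ligands and 2 receptors. In SP, 5 were higher (CXCL3, CXCL9, CXCL10, CXCL11 and CXCL16), 7 were lower (CCL3, CCL4, CCL17, CCL22, CCL24, CXCL12 and XCL2) and 17 did not pass. This is 41.4% of the tested members, near the 39.2% of all tested genes that passed, of which 20.5% were higher and 18.7% lower in SP, so the number of calls does not set the family apart. The median log2 fold change was −0.03 over the 29 and 0.01 over all tested genes. SP and MP values did not overlap for 12 of the 29 (41.4%), against 54.8% of all tested genes. CCL17, CCL22 and CCL24 were under 1 FPKM in every SP library, so they could enter the test only through MP and had to be lower in SP.

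The counts changed when single libraries were left out. With SP replicate 1 left out limma called 0 chemokine genes higher and 6 lower (4 and 9 at an unadjusted p under 0.05). Without SP replicates 2 and 3 it called 1 and 5 higher and 6 and 8 lower. Without MP replicates 1, 2 and 3 it called 1, 3 and 6 higher and 4, 4 and 5 lower. CCL3, CCL4, CXCL12 and XCL2 kept their call in all 15 alternatives, and each of the 5 higher genes lost it in at least 1. The calls of CCL17 and CCL24, whose direction the filter fixed, could not be tested with an MP library left out, and that of CCL22 was lost without any 1 SP library.

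**Figure D1:**
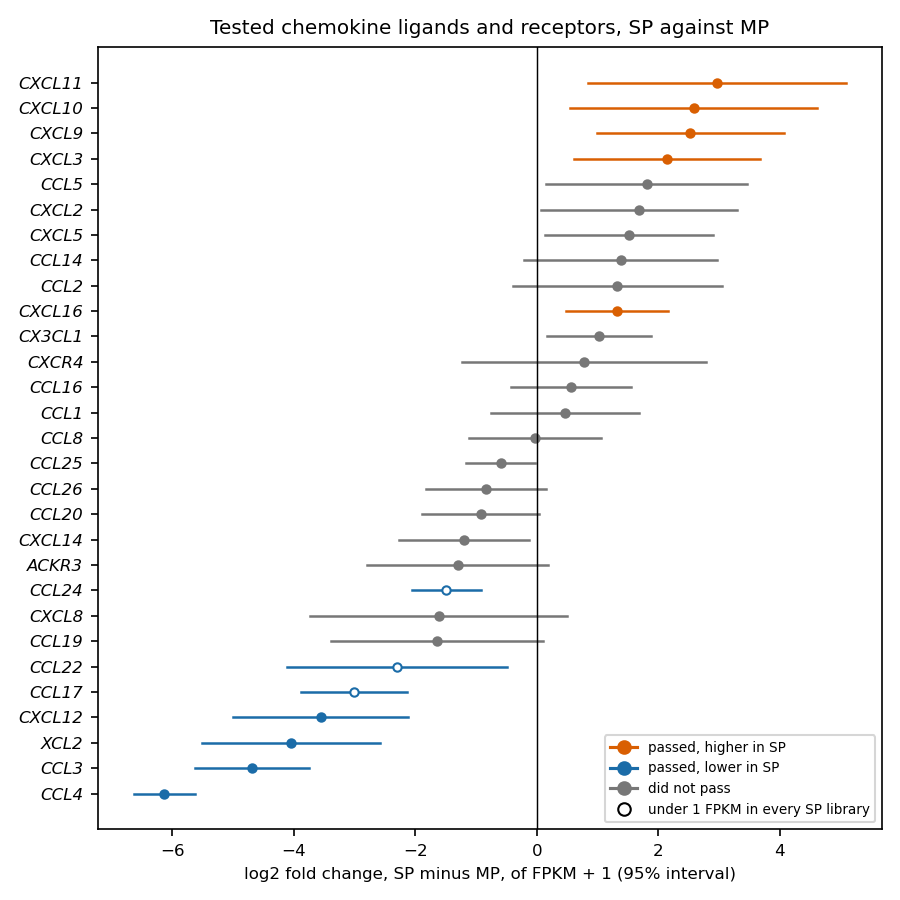
Log2 fold change (SP minus MP, of FPKM + 1) of the 29 tested chemokine genes with its 95% interval from limma, colored by the call; open points mark genes under 1 FPKM in every SP library. CCL4 and CCL3 stand at the low end at −6.13 and −4.70, and the CXCR3 ligands CXCL11, CXCL10 and CXCL9 at the high end at 2.97, 2.58 and 2.53.

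CXCL3, CXCL2, CXCL5 and CXCL8 attract neutrophils through CXCR2, and CXCL8 also through CXCR1; CXCL3 was higher in SP and the other 3 did not pass. CXCL3 (chromosome 6, 89061330 to 89063355; positions are on build ARS-UCD1.2) stood at 6568, 2974 and 3057 FPKM in SP and at 865, 341 and 2311 FPKM in MP. All SP libraries lay above all MP libraries, with MP replicate 3 far closer to SP than the other MP libraries. Its log2 fold change was 2.15 ± 0.66 (limma adjusted p = 0.0361). CXCL3 was the most abundant ligand in 4 of the 6 libraries and made up 28.7% to 45.7% of the ligand sum in SP and 10.0% to 38.8% in MP. CXCL2 was at 3235, 581 and 1531 FPKM in SP and at 476, 207 and 870 FPKM in MP, with SP replicate 2 below MP replicate 3 (1.69 ± 0.70, limma adjusted p = 0.0884). CXCL5 was at 121, 36.6 and 70.4 FPKM in SP and at 18.1, 12.2 and 54.0 FPKM in MP, with the same overlap (1.52 ± 0.60, limma adjusted p = 0.0764). CXCL8, the archetypal neutrophil attractant, did not pass and had the lower mean in SP: it was at 100, 4.89 and 36.1 FPKM in SP and at 125, 84.6 and 57.9 FPKM in MP (−1.62 ± 0.91, limma adjusted p = 0.188). The receptors of these ligands were near 0. CXCR2 was at 0.151 FPKM in SP replicate 1 and listed at 0 in the other SP libraries, against 0.670, 0.428 and 0.536 FPKM in MP. CXCR1 was listed at 0 in all SP libraries and stood at 1.23, 0.248 and 1.02 FPKM in MP. CXCL2 and CXCL3 are near-identical in sequence, so how the authors' counting split their reads bears on each value. The call of CXCL3 was lost without SP replicate 1, 2 or 3 (limma adjusted p = 0.111, 0.0628 and 0.0629), without MP replicate 1 or 2 (0.0904 and 0.0906) and with no filter on low values (0.0924), while CXCL2 passed without SP replicate 2 (0.0368) and CXCL5 without MP replicate 3 (0.0163), and both on values rescaled to an equal sum per library (0.0421 and 0.0332).

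CXCL9, CXCL10 and CXCL11 are induced by interferon and attract activated T cells and natural killer cells through CXCR3; all 3 were higher in SP. CXCL9 (chromosome 6, 90858580 to 90863225) was at 28.1, 75.0 and 17.6 FPKM in SP and at 1.51, 10.6 and 6.31 FPKM in MP. The groups did not overlap, and its log2 fold change was 2.53 ± 0.67 (limma adjusted p = 0.0217). CXCL10 was at 282, 542 and 65.5 FPKM in SP and at 12.2, 85.7 and 40.3 FPKM in MP. CXCL11 was at 342, 848 and 103 FPKM in SP and at 12.0, 109 and 42.7 FPKM in MP. For both, SP replicate 3 lay below MP replicate 2, and permuting the 6 libraries exactly (two-sided) gave p = 0.2 for each gene, with 0.1 the lowest p that 3 against 3 can reach. Their log2 fold changes were 2.58 ± 0.88 and 2.97 ± 0.92 (limma adjusted p = 0.0489 and 0.0362). All 3 ligands were highest in replicate 2 of each population. CXCR3, on the X chromosome, was listed at 0 in all 6 libraries. The tables list CXCL10 and CXCL11 at the same wide locus (chromosome 6, 90865407 to 91043062), shared with ART3 and NUP54, so their reads may not be told apart. All 3 calls were lost without SP replicate 1 (limma adjusted p = 0.0532, 0.129 and 0.0944 for CXCL9, CXCL10 and CXCL11), SP replicate 2 (0.0591, 0.137 and 0.101) or MP replicate 1 (0.0564, 0.140 and 0.102) and with no filter (0.0587, 0.113 and 0.0899). Those of CXCL10 and CXCL11 were also lost without MP replicate 3 (0.0787 and 0.0626), and that of CXCL10 with a pseudocount of 0.1 (0.0540) and with a filter on the mean level (0.0532).

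CXCL16 and CX3CL1 differ from other chemokines in being made as membrane proteins, which hold leukocytes on the cell surface and are shed by ADAM proteases. CXCL16 (chromosome 19, 26615779 to 26619263) was at 499, 508 and 436 FPKM in SP and at 109, 221 and 293 FPKM in MP. The SP libraries were close to each other and all lay above MP, and its log2 fold change was 1.32 ± 0.36 (limma adjusted p = 0.0251). CX3CL1, or fractalkine, was at 59.6, 32.5 and 40.0 FPKM in SP and at 14.3, 17.6 and 33.6 FPKM in MP. SP replicate 2 lay just below MP replicate 3, and CX3CL1 did not pass (1.03 ± 0.37, limma adjusted p = 0.0577). The receptors were higher on average in MP but low: CXCR6 was at 0.531 and 0.616 FPKM in MP replicates 1 and 2, listed at 0 in MP replicate 3 and at or below 0.0701 FPKM in SP. CX3CR1, a receptor of macrophages and natural killer cells, was at 0.905, 1.72 and 1.11 FPKM in MP, at 0.101 FPKM in SP replicate 3 and listed at 0 in SP replicates 1 and 2. The call of CXCL16 was lost without SP replicate 1, 2 or 3 (limma adjusted p = 0.0709, 0.0691 and 0.0514), MP replicate 2 (0.0574) and with no filter (0.0565), while CX3CL1 passed without MP replicate 3 (0.0159) and on values rescaled to an equal sum per library (0.0168) or without mitochondrially encoded and ribosomal protein genes (0.0430).

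**Figure D2:**
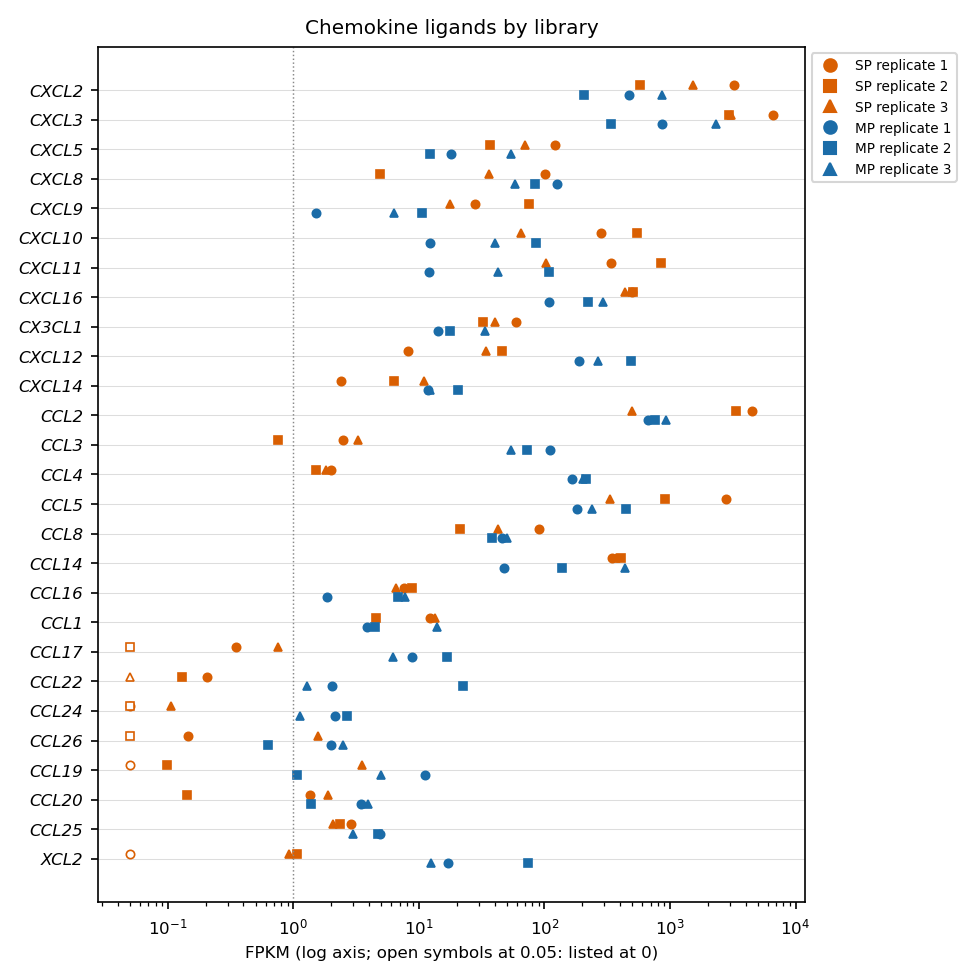
FPKM (log axis) of the 27 tested chemokine ligands in each library, SP in orange and MP in blue, with 1 symbol shape per replicate number; open symbols are listed at 0. CXCL3 and CCL2 reach 6568 and 4504 FPKM in SP, while CCL4 stands at 1.51 to 1.99 FPKM in SP and at 167 to 214 FPKM in MP.

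CXCL12, which retains blood stem cells in bone marrow and is made by stromal cells, was lower in SP, while its receptors CXCR4 and ACKR3 were the only receptors of the 21 examined at 1 FPKM or more in every library. CXCL12 (chromosome 28, 45022335 to 45051626) was at 8.21, 45.5 and 34.2 FPKM in SP and at 188, 486 and 265 FPKM in MP. The groups were far apart, the MP mean was 10.7 times the SP mean, and the log2 fold change was −3.55 ± 0.62 (limma adjusted p = 0.00595). CXCL12 made up 0.0433% to 0.512% of the ligand sum in SP and 4.45% to 14.3% in MP. Its call held in all 15 alternatives (limma adjusted p from 0.00542 to 0.0247). The signaling receptor CXCR4 (chromosome 2) was at 118, 7.72 and 25.6 FPKM in SP and at 26.4, 8.74 and 19.8 FPKM in MP. SP replicate 1 held the highest value and SP replicate 2 the lowest of all 6, so the groups overlapped fully (0.77 ± 0.87, 95% interval −1.24 to 2.78, limma adjusted p = 0.498), and without SP replicate 1 the estimate was −0.22. ACKR3, the atypical receptor that scavenges CXCL12 and CXCL11 (chromosome 3), was at 22.7, 9.66 and 15.0 FPKM in SP and at 114, 18.6 and 25.8 FPKM in MP. MP replicate 1 was far above all others, SP replicate 1 lay above MP replicate 2, and ACKR3 did not pass (−1.30 ± 0.64, 95% interval −2.79 to 0.19, limma adjusted p = 0.140). CXCR4 and ACKR3 together made up 79.5% to 99.1% of the receptor sum. The fibroblast marker sums moved with CXCL12 between the populations (292 to 492 FPKM in SP, 3112 to 11387 FPKM in MP; 10 of 12 fibroblast markers lower and 2 not passed, with the direction of 2 of the 12 fixed by the filter), but within MP replicate 1 had the highest fibroblast sum and the lowest CXCL12; their part in the result was not tested.

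Of the other homeostatic CXC ligands, CXCL14, a chemokine of epithelium and stroma, was at 2.38, 6.36 and 11.0 FPKM in SP and at 11.7, 20.4 and 12.2 FPKM in MP. The groups did not overlap, though SP replicate 3 came close to MP replicate 1, and CXCL14 did not pass (−1.20 ± 0.46, limma adjusted p = 0.0734); it passed without SP replicate 3 (0.0371). CXCL13, which draws B cells into follicles, was listed at 0 in all SP libraries and stood at 1.39, 2.90 and 0.366 FPKM in MP, too low to be tested. Its receptor CXCR5 was listed at 0 in all 6 libraries. CXCL17, a mucosal chemokine, reached at most 0.907 FPKM.

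Among the inflammatory CC ligands, which lie in clusters on chromosome 19 and attract monocytes, macrophages and T cells, CCL3 and CCL4 were lower in SP and CCL2, CCL5, CCL8, CCL14 and CCL16 did not pass. CCL4 (chromosome 19, 14339697 to 14341265) was at 1.99, 1.51 and 1.82 FPKM in SP and at 167, 214 and 203 FPKM in MP. Its libraries were nearly alike within each population, the MP mean was 109.6 times the SP mean, and its log2 fold change of −6.13 ± 0.22 (limma adjusted p = 7.77e-06) was the most negative of the 29. CCL3 was at 2.504, 0.749 and 3.28 FPKM in SP and at 112, 73.0 and 53.7 FPKM in MP, which gave −4.70 ± 0.41 (limma adjusted p = 0.000725). Both kept their call in all 15 alternatives. CCL3 and CCL4 are products of activated macrophages and lymphocytes. Myeloid markers summed to 123 to 146 FPKM in SP and to 687 to 1237 FPKM in MP. Of 13 tested, 11 were lower, and 6 of the 13 were under 1 FPKM in every SP library, so that the filter fixed their direction. The 2 that did not pass were CD14, with the higher mean in SP (97.6 against 63.7 FPKM), and CD68, with the lower (22.4 against 33.3 FPKM). Both were named after their values were seen. CD14 was at 105, 101 and 86.9 FPKM in SP, most of the SP sum. T and NK cell markers summed to 1.63 to 5.73 FPKM in SP and to 86.7 to 267 FPKM in MP. All 8 tested were lower, 6 of them likewise fixed in direction, and CD8B and GZMA were listed at 0 in all SP libraries. The part of myeloid, T and NK cells in the difference was not tested.

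CCL2, the main monocyte attractant, ranked among the 3 most abundant of the 34 ligands in every library. It was at 4504, 3334 and 501 FPKM in SP and at 674, 757 and 930 FPKM in MP. SP replicates 1 and 2 lay above all MP libraries and SP replicate 3 below them all, so CCL2 did not pass (1.33 ± 0.74, limma adjusted p = 0.185); without SP replicate 3 it did (2.31, limma adjusted p = 0.00520). CCL5, a chemokine of T cells and natural killer cells that endothelium and epithelium also make on stimulation, was at 2771, 917 and 330 FPKM in SP and at 183, 445 and 239 FPKM in MP. SP replicate 3 lay below MP replicate 2, and CCL5 did not pass (1.81 ± 0.72, limma adjusted p = 0.0786), but did without SP replicate 3 (2.56, limma adjusted p = 0.0225) and on values rescaled to an equal sum (0.0308) or without mitochondrially encoded and ribosomal protein genes (0.0425). The T and NK cell markers summed to 1.63 to 5.73 FPKM in the same SP libraries, and which cells the CCL5 transcript came from was not tested. CCL14, a CCR1 ligand abundant in plasma, was steady in SP at 345, 409 and 372 FPKM and spread in MP at 47.9, 138 and 440 FPKM. MP replicate 3 held the highest of the 6 values (1.38 ± 0.69, limma adjusted p = 0.142), and without it CCL14 passed (2.19, limma adjusted p = 0.0104). CCL16 was at 7.57, 8.82 and 6.52 FPKM in SP and at 1.86, 6.79 and 7.72 FPKM in MP (0.57 ± 0.43, limma adjusted p = 0.311). CCL8, close kin of CCL2, was at 89.7, 21.0 and 42.9 FPKM in SP and at 45.6, 38.4 and 50.0 FPKM in MP, with no consistent direction (−0.03 ± 0.47, 95% interval −1.12 to 1.06, limma adjusted p = 0.963).

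The CC ligands that attract eosinophils, T helper and regulatory T cells through CCR3, CCR4 and CCR8 were low. CCL17 (chromosome 18, 25420732 to 25423723), a dendritic cell product that binds CCR4, was at 0.350, 0 and 0.754 FPKM in SP and at 8.83, 16.7 and 6.16 FPKM in MP (−3.01 ± 0.38, limma adjusted p = 0.00228). CCL22, the other CCR4 ligand, was at 0.206, 0.129 and 0 FPKM in SP and at 2.02, 22.5 and 1.28 FPKM in MP, with MP replicate 2 far above the rest (−2.30 ± 0.78, limma adjusted p = 0.0498). CCL24, an eotaxin, was at 0.105 FPKM in SP replicate 3, listed at 0 in the other SP libraries, and at 2.13, 2.66 and 1.12 FPKM in MP (−1.49 ± 0.24, limma adjusted p = 0.00497). The direction of these 3 was set by the filter, as stated above. CCL26, also an eotaxin, was at 0.145, 0 and 1.56 FPKM in SP and at 1.99, 0.624 and 2.49 FPKM in MP and did not pass (−0.84 ± 0.43, limma adjusted p = 0.147). CCL1, the CCR8 ligand, was at 12.2, 4.58 and 13.3 FPKM in SP and at 3.83, 4.47 and 14.0 FPKM in MP, where MP replicate 3 was level with the 2 higher SP libraries (0.47 ± 0.53, limma adjusted p = 0.494). CCL11, the eotaxin of the CCL2 cluster, reached at most 0.567 FPKM. Of 6 tested mast cell markers 4 were lower in SP, 2 of the 6 being under 1 FPKM in every SP library and fixed in direction by the filter. The other 2, KIT and GATA2, did not pass and had the higher mean in SP (21.9 against 12.2 FPKM and 23.5 against 16.8 FPKM). Both were named after their values were seen. The list summed to 28.4 to 63.8 FPKM in SP and to 430 to 1004 FPKM in MP, and the part of mast cells in these values was not tested. The call of CCL22 was lost without SP replicate 1, 2 or 3 (limma adjusted p = 0.106, 0.103 and 0.115) and in 5 of the 9 other alternatives in which it was tested; without any 1 MP library CCL17, CCL22 and CCL24 fell under the filter, as CCL26 did without MP replicate 1 or 3 or SP replicate 3.

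XCL1 and XCL2 are near-copies on chromosome 16 made by activated natural killer and T cells. XCL2 (36150531 to 36154109) was listed at 0 in SP replicate 1, stood at 1.06 and 0.930 FPKM in SP replicates 2 and 3 and at 17.0, 73.3 and 12.4 FPKM in MP, which gave −4.04 ± 0.63 (limma adjusted p = 0.00423). XCL1 was too low to be tested, at 0.481 FPKM in SP replicate 2 only and at 0.532, 5.01 and 0.886 FPKM in MP. MP replicate 2 was the highest library for both, and how reads were shared between the copies is not known. XCR1, their receptor on cross-presenting dendritic cells, was listed at 0 in SP and reached at most 0.0298 FPKM in MP.

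The lymphoid and mucosal CC ligands were low in both populations and none passed with limma (1 of the 3 tested at an unadjusted p under 0.05, lower in SP). CCL19, which guides dendritic cells and naive T cells through CCR7, was at 0, 0.0981 and 3.51 FPKM in SP and at 11.2, 1.08 and 4.96 FPKM in MP (−1.64 ± 0.76, limma adjusted p = 0.117); it passed without SP replicate 3 (−2.34, limma adjusted p = 0.0458). CCL20, the CCR6 ligand of inflamed epithelium, was at 1.34, 0.141 and 1.88 FPKM in SP and at 3.44, 1.39 and 3.90 FPKM in MP, with SP replicate 3 above MP replicate 2 (−0.92 ± 0.42, limma adjusted p = 0.113). CCL25, the CCR9 ligand of thymus and gut, was at 2.87, 2.36 and 2.06 FPKM in SP and at 4.88, 4.74 and 3.00 FPKM in MP, which did not overlap (−0.59 ± 0.25, limma adjusted p = 0.0903); it passed without MP replicate 3 (0.0407). CCL21, CCL27 and CCL28 could not be tested and reached at most 0.929, 0.118 and 1.43 FPKM.

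Apart from CXCR4 and ACKR3, the other 19 receptors could not be tested, and none exceeded the 1.72 FPKM of CX3CR1 in MP replicate 2. Of these 19, 15 had the higher mean in MP, 1 (ACKR4) in SP, and 3 (CCR10, CXCR3 and CXCR5) were listed at 0 in all 6 libraries. In all, 10 receptors were listed at 0 in every SP library and 3 in every MP library, with SP the shallower group. CCR1, a receptor of monocytes and macrophages, was at 0.0919, 0.0959 and 0.0841 FPKM in SP and at 0.607, 1.22 and 0.386 FPKM in MP. CCR7, the homing receptor for lymph nodes, was at 0.0770, 0 and 0.0844 FPKM in SP and at 0.695, 0.968 and 0.155 FPKM in MP. CCR6 was at 0.243, 0 and 0.0437 FPKM in SP and at 0.279, 0.489 and 0.283 FPKM in MP. For these 3 genes, as for CXCR1, CXCR2 and CX3CR1, all MP libraries lay above all SP libraries. SP and MP values did not overlap for 54.8% of all tested genes, and no share was computed for genes as low as these receptors. ACKR4, which scavenges CCL19, CCL21 and CCL25, was at 0.692, 1.02 and 0.134 FPKM in SP and at 0.245, 0.115 and 0 FPKM in MP, and ACKR2, the scavenger of inflammatory CC ligands, stood at or below 0.163 FPKM throughout. CCR8 reached 0.412 FPKM, and CCR2, CCR3, CCR4 and CCR9 reached at most 0.118 FPKM, none of these 4 with any value above 0 in SP. The tables list CCR2 and CCR3 at the same locus (chromosome 22, 52992736 to 53206056) as the expressed gene CCRL2, and the loci of CCR4, CXCR6 and ACKR2 overlap GLB1, FYCO1 and HIGD1A, so small values of these 5 receptors may not be their own.

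**Figure D3:**
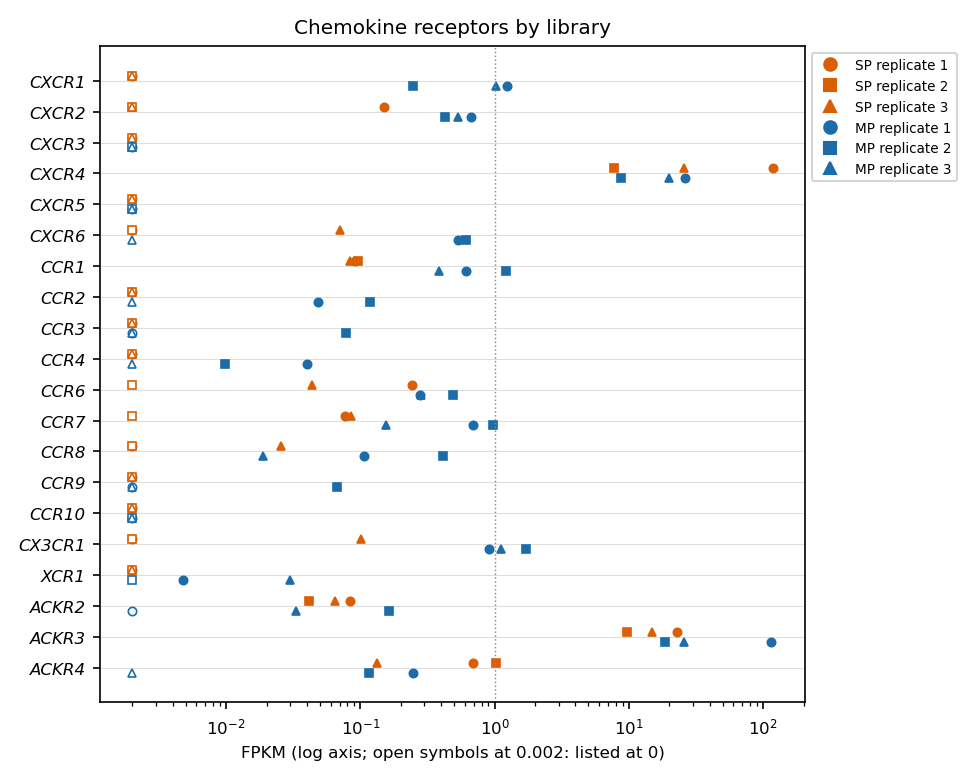
FPKM (log axis) of the chemokine receptors reported here in each library, SP in orange and MP in blue, with 1 symbol shape per replicate number; open symbols are listed at 0. CXCR4 and ACKR3 stand apart at 7.72 to 118 FPKM, and all other values are at or below 1.72 FPKM.

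Ligands were then set beside their receptors, in 47 textbook pairs that cover all 21 receptors and 31 of the ligands. The ligand was at 1 FPKM or more in all 3 SP libraries in 29 pairs and in all 3 MP libraries in 39 pairs. Both partners reached that level in only 3 pairs in SP and in the same 3 pairs in MP, namely CXCL12 with CXCR4, CXCL12 with ACKR3 and CXCL11 with ACKR3. In these pairs the ligand differed between the populations and the receptors did not pass: mean CXCL12 was 29.3 FPKM beside 50.4 FPKM of CXCR4 and 15.8 FPKM of ACKR3 in SP, and 313 FPKM beside 18.3 and 52.9 FPKM in MP. Mean CXCL11 was 431 FPKM in SP and 54.4 FPKM in MP beside the same ACKR3 levels. FPKM is scaled by length, so levels of different genes are set side by side here. The comparison is rough, as the quantifier is not given and reads of near-identical or overlapping genes may be split wrongly. For CXCL3, CCL2 and CCL5 the listed receptors were all below 1 FPKM on average in both populations. Mean CXCL3 was 4200 FPKM beside 0.0504 FPKM of CXCR2 in SP and 1172 FPKM beside 0.544 FPKM in MP. Mean CCL2 was 2780 FPKM in SP and 787 FPKM in MP, with CCR2 listed at 0 in SP and at 0.0555 FPKM in MP. Mean CCL5 was 1339 FPKM in SP and 289 FPKM in MP beside CCR1 at 0.0907 and 0.736 FPKM. For CX3CL1 and CX3CR1 the order of the partners was opposite: the ligand mean was 44.0 FPKM in SP and 21.8 FPKM in MP, a difference that did not pass, and the receptor mean 0.0336 and 1.24 FPKM.

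**Figure D4:**
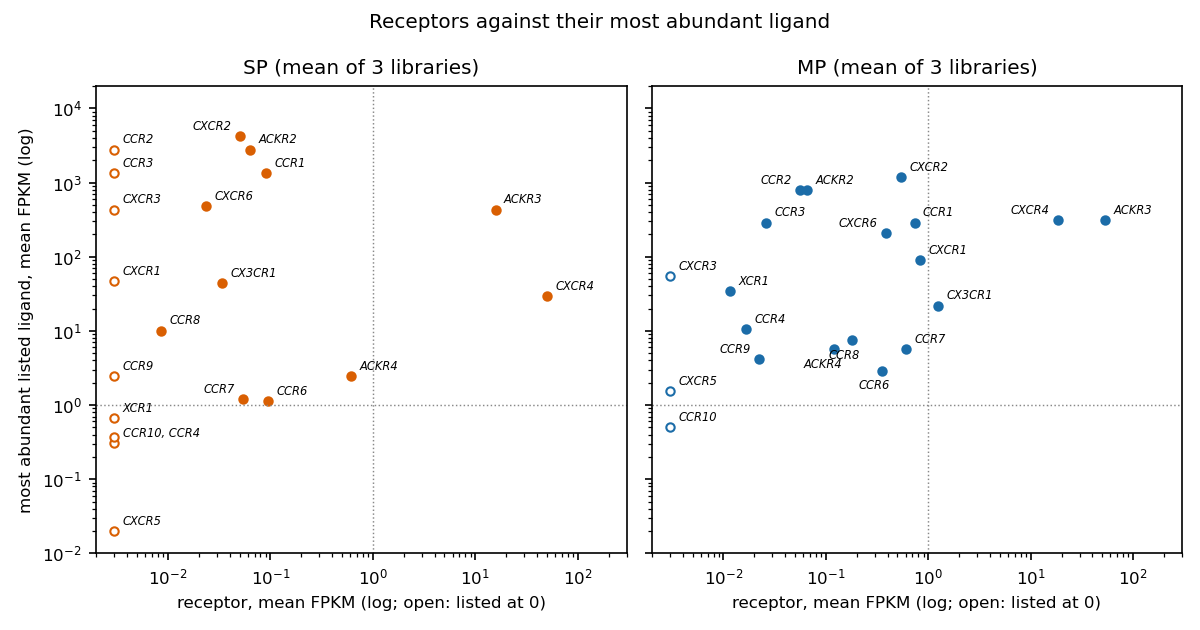
Mean FPKM of each receptor reported here (x axis, log) against the mean of its most abundant listed ligand (y axis, log) in SP (left) and MP (right), over 3 libraries each; open points are receptors listed at 0, dotted lines mark 1 FPKM, and the ligand of CXCR5 in SP, listed at 0, is drawn at the foot of the axis. CXCR4 and ACKR3 lie alone beyond 10 FPKM of receptor in both panels, and the CXCR2 ligand reaches 4200 FPKM beside 0.0504 FPKM of receptor in SP.

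Genes of chemokine signaling outside the family moved in both directions. Of 34 listed genes 24 were tested, of which 6 were higher in SP, 6 were lower and 12 did not pass, with a median log2 fold change of 0.23. Over all tested genes 20.5% were higher and 18.7% lower in SP, so these counts do not set the list apart. RGS1, a leukocyte regulator that ends G protein signaling from chemokine receptors, was at 0.512, 0.0456 and 1.09 FPKM in SP and at 41.8, 16.9 and 30.6 FPKM in MP (−4.28 ± 0.39, limma adjusted p = 0.000866). RAC2, the Rac GTPase of blood cells, and GNG2, a G protein gamma subunit, were also lower (−3.11 ± 0.42 and −2.21 ± 0.31, limma adjusted p = 0.00288 and 0.00324). JAK2, a cytokine receptor kinase, was at 52.1, 35.2 and 26.3 FPKM in SP and at 5.21, 7.29 and 12.1 FPKM in MP (2.09 ± 0.36, limma adjusted p = 0.00564). RAC2 and RGS1 are genes of leukocytes, whose markers were lower in the same libraries, as given above, and the part of those cells was not tested.

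Genes that hold, cut or resemble chemokines were likewise split. Of the 25 listed genes found in the tables, 19 were tested, of which 4 were higher in SP, 6 were lower and 9 did not pass (median −0.19). The shares over all tested genes were 20.5% higher and 18.7% lower. SDC4, a heparan sulfate proteoglycan that binds chemokines, was at 45.0, 232 and 166 FPKM in SP and at 959, 1033 and 720 FPKM in MP (−2.88 ± 0.56, limma adjusted p = 0.00786). RARRES2, the attractant chemerin, was at 50.5, 56.0 and 55.1 FPKM in SP and at 117, 140 and 162 FPKM in MP (−1.35 ± 0.22, limma adjusted p = 0.00474). The heparan sulfate sulfotransferases HS6ST1 and NDST1 were higher in SP by 1.88 ± 0.39 and 1.38 ± 0.32 on the log2 scale (limma adjusted p = 0.0103 and 0.0137). ADAM10, which sheds CXCL16 and CX3CL1, was at a mean of 27.7 FPKM in SP and 12.0 FPKM in MP (1.21, limma adjusted p = 0.0208), and ADAM17 did not pass (0.72, limma adjusted p = 0.0844); these 2 were named after their values were seen, for their role in shedding.

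A list of NF-kappaB, interferon and cytokine pathway genes, which also holds an NF-kappaB inhibitor, was mostly higher in SP. Of 27 tested, 17 were higher, 3 were lower and 7 did not pass. Over all tested genes 20.5% were higher and 18.7% lower. The median log2 fold change was 1.30 in the list, against 0.01 over all genes. TNFRSF1B, a tumor necrosis factor receptor, was at 182, 81.1 and 85.1 FPKM in SP and at 9.83, 13.8 and 34.0 FPKM in MP (2.62 ± 0.49, limma adjusted p = 0.00715). LTBR, the lymphotoxin receptor, was at 66.1, 71.4 and 65.0 FPKM in SP and at 29.7, 33.2 and 30.9 FPKM in MP (1.09 ± 0.20, limma adjusted p = 0.00658). The cytokines of the list did not share a direction. TNF was at 0.348, 0 and 0.304 FPKM in SP and at 7.81, 7.54 and 5.70 FPKM in MP (−2.72 ± 0.23, limma adjusted p = 0.000714), a direction fixed by the filter, and IL1B was at 1.60, 0.395 and 0.373 FPKM in SP and at 65.1, 40.8 and 16.6 FPKM in MP (−4.42 ± 0.50, limma adjusted p = 0.00173). IL6 and IL1A had the higher mean in SP (727 against 264 FPKM and 6.18 against 2.88 FPKM) and did not pass (limma adjusted p = 0.0921 and 0.134). The third lower gene was IFNGR2. IFNG, the interferon that induces CXCL9, was too low to be tested, at a mean of 0.0250 FPKM in SP and 0.321 FPKM in MP; IL6, IL1A, IFNGR2 and IFNG were named after their values were seen.

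Marker lists of cell types that the sorted fractions could hold were compared between the same libraries. For these lists and the marker lists above, the shares over all tested genes were 20.5% higher and 18.7% lower in SP. Of 14 endothelial markers 13 were higher in SP. The other, CLDN5, did not pass and had the lower mean in SP (28.2 against 45.5 FPKM). It was named after its values were seen. The endothelial markers had a median level of 145, 98.5 and 102 FPKM in SP and of 8.08, 18.2 and 63.2 FPKM in MP. Their order in MP, with replicate 3 highest, was also that of CXCL16, CX3CL1 and CCL14, and of the summed myeloid, mast cell, and T and NK cell markers. CXCL9, CXCL10 and CXCL11 were highest in MP replicate 2, as were the summed epithelial markers. An order of 3 libraries cannot tell which cells a transcript came from. Of the venular and lymphatic endothelial markers 2 of 7 tested were higher, SELP and SELE, the selectins on which leukocytes roll, and 5 did not pass. Among those 5, ICAM1, VCAM1 and LYVE1 had the higher mean in SP. NR2F2 and PDPN had the lower mean in SP (28.3 against 46.2 FPKM and 2.95 against 11.2 FPKM). These 5 were named after their values were seen. SELP was at 3684, 4842 and 4205 FPKM in SP and at 210, 573 and 2811 FPKM in MP (2.59 ± 0.81, limma adjusted p = 0.0375). The epithelial markers did not separate the populations, with sums of 198, 1809 and 1018 FPKM in SP and of 1031, 4714 and 1271 FPKM in MP (limma called 0 of 12, and 0 at an unadjusted p under 0.05). B cell and plasma cell markers were lower in SP for 2 of 3, both under 1 FPKM in every SP library and so fixed in direction by the filter. Pericyte and smooth muscle markers were lower for 5 of 9 tested, and 4 did not pass. Among those 4, MCAM had the higher mean in SP (89.3 against 40.6 FPKM, limma adjusted p = 0.0573). MYH11, NOTCH3 and RGS5 had the lower mean in SP. These 4 were named after their values were seen. The part of any of these cell types in the chemokine differences was not tested.

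**Figure D5:**
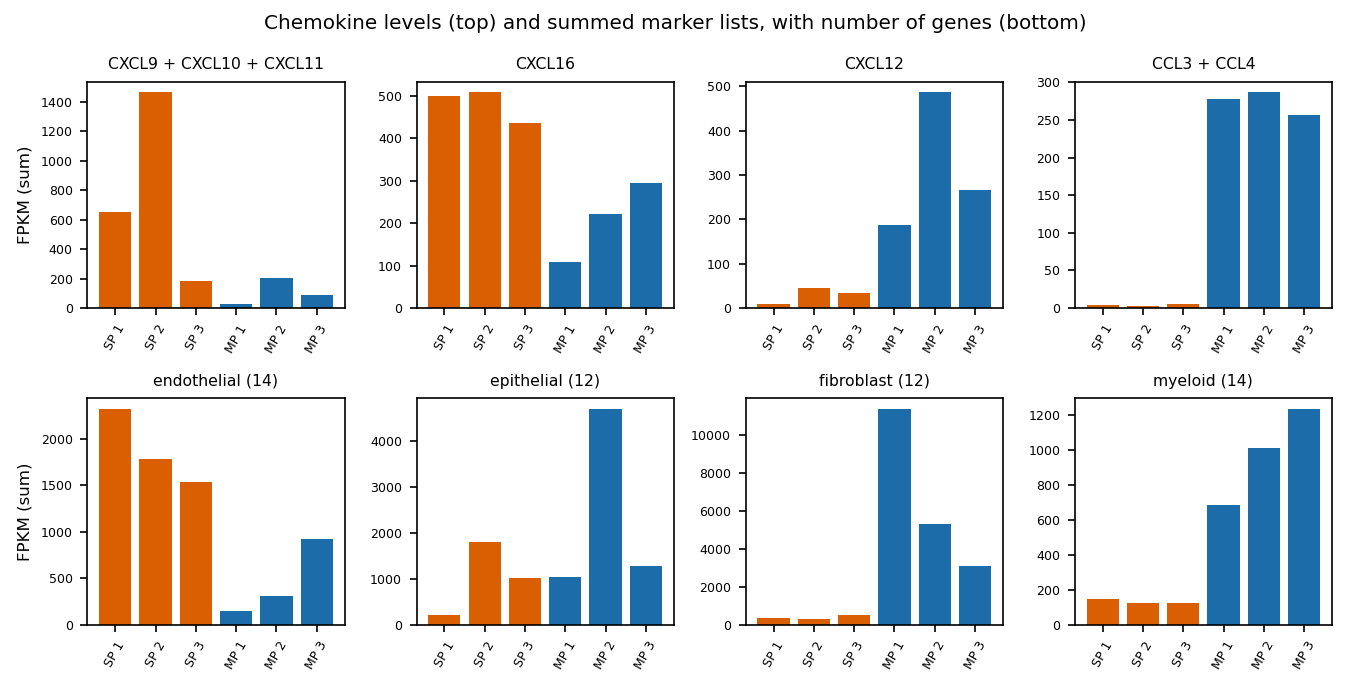
FPKM by library of 4 chemokine groups (top: CXCL9 to CXCL11 summed, CXCL16, CXCL12, CCL3 and CCL4 summed) and of 4 summed marker lists with their number of genes (bottom); bars are single libraries, SP in orange and MP in blue. The endothelial sum is 1535 to 2325 FPKM in SP and 145 to 919 FPKM in MP, and the fibroblast sum 292 to 492 and 3112 to 11387 FPKM.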

How the data were processed

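The deposited values are FPKM per gene and library, per the file headers, computed by the authors from 6 mRNA libraries made with a stranded kit, per the labels' protocols. Per the submitters' processing notes, cutadapt 2.5, HISAT2 2.1.0 and build ARS-UCD1.2 were used. The sources used here do not give the quantifier, the annotation or whether strand was used. Only MP column names contain the word micro, which no source explains. A row without a gene name (0.185% to 1.91% of FPKM) was left out, and 1690 rows that repeat a symbol were kept. All 55 members matched the gene table of ARS-UCD2.0 by symbol; positions come from the files and are given 1-based.

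Groups and replicate numbers came from the titles. Tests, all two-sided, used limma 3.58.1 (R 4.3.3; lmFit, then eBayes with trend) on log2(FPKM + 1), which understates fold changes of low genes; the fit was tested on simulated data. Relative depth came from the ratios of the lowest values between libraries; the absolute depth and its counting error are unknown. Of the receptors too low to test, 1 is counted but not reported here by name. Every tested member was named, with up to 4 called genes per list by smallest p and the 2 most abundant markers of other cells. Members and lists were chosen with earlier results of these data known. Alternatives were another pseudocount, filter, scaling or variance model, a replicate block and leaving out each library.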

Additional observations from a re-analysis of the deposited data

How the results depend on the processing

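Over 15 alternatives no chemokine gene that had passed reversed its direction. Of the 12 called members 6 kept their call in all alternatives in which they were tested, and of the 17 without a call 12 passed in at least 1. The sign differed for CCL8 in 4 alternatives and for CXCR4 in 1. The number of members higher in SP, 5, was 0 with no filter on low values (limma, 52 tested, with 9 lower; at an unadjusted p under 0.05 it was 6 higher and 15 lower) and 9 when each library was rescaled to the same sum. Leaving out single libraries gave 0 to 6 members higher, 4 to 8 lower and 2421 to 4455 calls over all genes. Rescaling to the same sum raised the share of all calls that were higher in SP from 52.3% to 68.0% and moved the median of all genes to 0.19. Without MP replicate 2 that median was 0.10. CCL17, CCL22 and CCL24 could not be tested with any 1 MP library left out, nor CCL26 without MP replicate 1 or 3 or SP replicate 3, because too few libraries then reached the filter.

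The replicate numbers are shared by the populations, but the labels do not say that a number marks the same animal. Deviations of same-numbered libraries from their group means correlated at 0.105, 0.533 and −0.085 for numbers 1, 2 and 3. The 0.533 was the highest value over all pairs of an SP and an MP library, while SP replicates 1 and 3 correlated best with another number. From 3 libraries per group, these correlations cannot decide whether a shared number marks a shared animal. With the replicate block limma called 7 members higher and 10 lower and 4793 genes in all; CXCL2, CXCL5, ACKR3, CCL20 and CCL26 then passed (limma adjusted p = 0.0242, 0.0405, 0.0348, 0.0222 and 0.0463).

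The depth of SP, below that of every MP library, limits what can be said of receptors and of ligands under 1 FPKM. The split of reads between near-identical or overlapping genes cannot be checked from FPKM.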

Other observations

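Genes close to the chemokine family carry other symbols in the tables. GRO1, which the gene table gives as the bovine symbol of CXCL1, a neutrophil attractant (chromosome 6, 89072989 to 89075128), was at 4923, 1824 and 2478 FPKM in SP and at 861, 352 and 1629 FPKM in MP. All SP libraries lay above all MP libraries (log2 fold change 1.83 ± 0.58, limma adjusted p = 0.0407). Its level was of the order of CXCL3, its neighbor on chromosome 6, and MP replicate 3 was again the highest MP library. CCRL2, an atypical receptor that binds chemerin, was at 27.4, 16.3 and 15.0 FPKM in SP and at 3.52, 3.81 and 16.9 FPKM in MP and did not pass (1.45 ± 0.54, limma adjusted p = 0.0651). PF4 and PPBP, the platelet chemokines, reached at most 0.119 FPKM and were listed at 0 in all 6 libraries, respectively.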
